A study of Mus musculus with 21 samples.

Results

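The comparison sets mouse embryonic fibroblasts (MEFs) that received siRNA against Hsf1 and carry V5-tagged GCN5 against MEFs that received control siRNA and carry LacZ. The first group has a reduced Hsf1 message and an added acetyltransferase, and the second has neither. The members were chosen by the labels alone and are 6 of the 21 samples of the series, 3 RNA libraries per group. Of 41608 genes in the count table, 12187 had enough counts to be tested. The comparison asks how near the added GCN5 brings Hsf1-depleted cells to the control, and which genes stay apart.

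The series studies how HSF1 affects transcription by c-MYC. Immortalized MEFs that stably express LacZ or V5-GCN5 were transfected for 2 days with siRNA at 10 nM, either control (siControl) or directed at Hsf1 (siHsf1). This gives siControl LacZ (genotype label Hsf1 WT), siHsf1 LacZ (Hsf1 KD), siControl GCN5 (Hsf1 WT) and siHsf1 GCN5 (Hsf1 KD), each with 3 libraries, called below control, knockdown, control+GCN5 and knockdown+GCN5 in that order, where knockdown always means that of Hsf1. The promoter that drives the transgenes, the species of the GCN5 construct and whether each line is a single clone are not stated in the labels. Every comparison of a GCN5 library with a LacZ library is therefore also a comparison of 2 stable lines. The libraries of a group are called triplicates, without a statement that they were separate cultures, so p-values measure the spread between libraries as labelled.

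HSF1 is a transcription factor that, after proteotoxic stress, binds heat shock elements in DNA and switches on genes of molecular chaperones, the proteins that help others fold. c-MYC binds DNA together with MAX and supports genes of ribosome production, nucleotide synthesis and cell division. GCN5, encoded by Kat2a, acetylates histones as a subunit of the SAGA and ATAC complexes and can be recruited to promoters by transcription factors, c-MYC among them.

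Total gene counts were 7.31 to 8.07 M (mega) in control and 3.96 to 4.27 M in knockdown+GCN5 libraries, and depth coincides with line in the whole set. Counts are given as CPM, counts per megacount of the library after TMM scaling, a method that takes most genes as unchanged. An undetected gene could still be as high as 0.372 to 0.41 CPM in a control library and 0.702 to 0.758 CPM in a knockdown+GCN5 library, taking 3 counts as the limit for counting error alone. Summed over 12 fibroblast markers, levels were 4910.0 to 5170.0 CPM in control and 5780.0 to 6020.0 CPM in knockdown+GCN5 libraries, while 1 of the 12, Lum, was at 0. Summed over 10 haematopoietic markers they were 6.56 to 8.65 and 4.56 to 6.32 CPM, and 7 of these 10, Cd3e and Itgam included, were at 0 in all 12 libraries. In such bulk samples, fewer cells of a type and less RNA per cell cannot be told apart.

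Hsf1 stayed low, while Myc and Kat2a differed from control by little with TMM scaling. Hsf1 (gene ID 15499, chr15:76477367-76500982 in GRCm38.p6) had 128, 128 and 134 CPM in the control and 67.9, 74.5 and 73.0 CPM in knockdown+GCN5 libraries. The groups did not overlap, and the log2 fold change was -0.86 ± 0.08 (SE; edgeR quasi-likelihood test, Benjamini-Hochberg adjusted p = 3.0e-08). Against knockdown, which had 57.6, 55.4 and 47.8 CPM, the same libraries were 0.42 higher on the log2 scale (edgeR adjusted p = 0.00019; spike-in 0.35, edgeR adjusted p = 0.71), so that more Hsf1 message was left in the GCN5 line on the first scale. All adjusted p-values here come from that edgeR test over 12187 genes, and a gene is called when its value is under 0.05.

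Kat2a (gene ID 14534, chr11:100704746-100712478) had 215, 215 and 219.8 CPM in control and 247, 252 and 244 CPM in knockdown+GCN5, a log2 fold change of 0.19 ± 0.06 (edgeR adjusted p = 0.031). This small rise does not hold on the spike-in scale described below, where the value was -0.24, and 8 of 14 alternatives ended the call. These include leaving out any 1 knockdown+GCN5 library or control replicate 1, and thinning, which gave 0.14. Since the species of the construct is not given, Kat2a counts do not test the GCN5 label. In knockdown, Kat2a had 125, 118 and 130.1 CPM, below every control library. Myc (gene ID 17869, chr15:61985341-61990361) had 130.3, 142 and 147 CPM in control and 158, 144 and 139 CPM in knockdown+GCN5. These overlap, with a log2 fold change of 0.07 ± 0.08 (edgeR adjusted p = 0.62; spike-in -0.35), whereas knockdown had 99.4, 89.4 and 88.1 CPM, all lower than control.

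**Figure D1:**
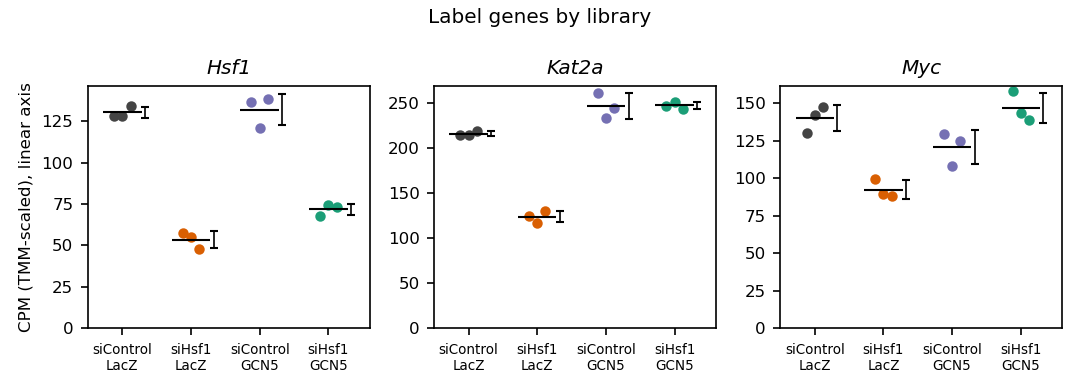
CPM of Hsf1, Kat2a and Myc (linear axes from 0) in the 12 libraries by group; points are libraries, horizontal lines group means and bars 1 SD. Hsf1 is low in both siHsf1 groups, while Kat2a and Myc in siHsf1 GCN5 lie near or above siControl LacZ and above siHsf1 LacZ on this TMM scale.

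Across all genes, 1839 of 12187 (15.1%) differed between knockdown+GCN5 and control, 971 higher (7.97%) and 868 lower (7.12%). Without GCN5, 4944 genes (40.6%) differed between knockdown and control, 2571 higher (21.1%) and 2373 lower (19.5%). Both comparisons use the same control libraries, so the 2 counts are set side by side only. The difference between the 2 departures, in which the shared libraries cancel, is knockdown+GCN5 against knockdown, and there 5464 genes (44.8%) were called, 2711 higher (22.2%) and 2753 lower (22.6%). Of the 1839 genes, 624 changed by over 1.5-fold and 288 by over 2-fold, against 1716 and 518 of the 4944 without GCN5. The median size of the log2 fold change over all tested genes was 0.161 with GCN5 and 0.257 without. With the spike-in scaling described below this order turned, at 0.448 with GCN5 and 0.401 without.

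A missed threshold does not show that a gene is back at its control level, so intervals were used for that question. For 8100 genes (66.5%), the 95% interval of the fold change lay wholly within 1.5-fold of control in knockdown+GCN5. The corresponding number for knockdown was 6729 (55.2%). Both counts are from TMM scaling. The remaining genes are either apart from control or not measured closely enough to tell.

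With TMM scaling the knockdown+GCN5 libraries were nearer to control than the knockdown libraries were, yet farther than replicates are from each other. The distance between a pair of libraries was taken as the root mean square difference of log2 CPM over the tested genes, after all libraries were thinned to 3.69 M counts. It averaged 0.522 (0.499 to 0.552) for the 9 pairs of control with knockdown+GCN5 and 0.589 (0.558 to 0.631) for those with knockdown. Pairs within control averaged 0.429. Without thinning these 3 means were 0.519, 0.564 and 0.382. After thinning, knockdown+GCN5 libraries stood 0.665 from knockdown libraries, farther than either group stood from control. The control+GCN5 libraries stood 0.515 from control, about as far as knockdown+GCN5 libraries. Between the GCN5 groups the pairs were at 0.41 to 0.429 (mean 0.419), which overlaps the 0.403 to 0.423 of control+GCN5 replicates and lies above the 0.392 to 0.396 of knockdown+GCN5 replicates. Over the 8333 genes whose mean log2 CPM was 4 or more, the pairs between these groups were at 0.234 to 0.276 without thinning (mean 0.249). This range overlaps the 0.242 to 0.246 of control+GCN5 replicates and lies above the 0.22 to 0.228 of knockdown+GCN5 replicates. These are descriptions without a test, since pairs share libraries.

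**Figure D2:**
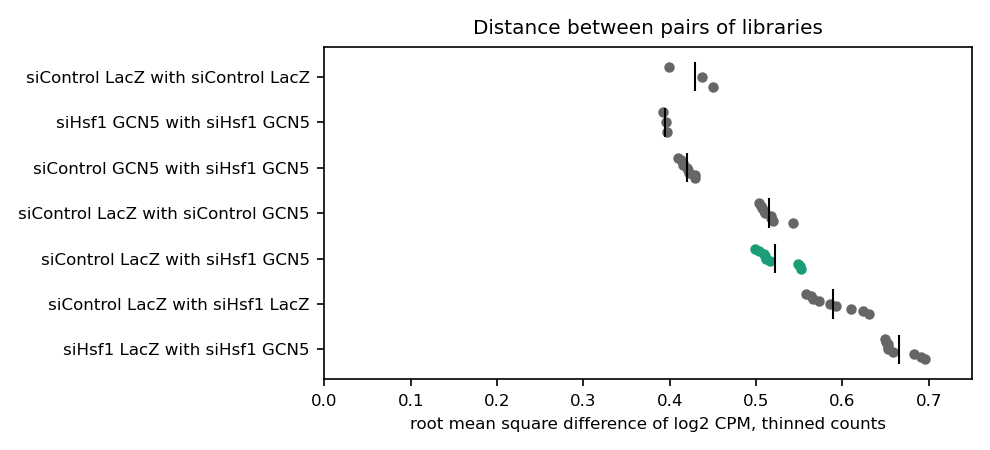
Root mean square difference of log2 CPM (thinned counts, 12187 genes) for pairs of libraries; points are pairs and vertical lines means. Pairs of siControl LacZ with siHsf1 GCN5 (green, mean 0.522) lie beside those with siControl GCN5 (0.515) and below those with siHsf1 LacZ (0.589). Pairs of siHsf1 LacZ with siHsf1 GCN5 have the largest mean shown (0.665).

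The fold change of knockdown+GCN5 against control is the sum of 2 steps, the GCN5 line against the LacZ line under siControl, and siHsf1 against siControl within the GCN5 line. The first step, which uses the same control libraries, had 1171 called genes (9.61%), 665 higher (5.46%) and 506 lower (4.15%). The second had 20 (0.164%), 8 higher (0.0656%) and 12 lower (0.0985%), with 1177 genes at an unadjusted p under 0.05. For several genes below, the value of a step is given to show in which one the difference was seen.

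ERCC RNA, added to the extracted RNA of each sample, gave another scale. Scaling by ERCC subgroup B moved the median log2 fold change of all genes to -0.435 for knockdown+GCN5 against control and -0.349 for knockdown against control. The share of subgroup B was 0.252% ± 0.0335 (SD, n = 3) in knockdown+GCN5 and 0.192% ± 0.0495 in control, a ratio of 1.31 (two-sided exact permutation p = 0.3; the smallest possible with 3 libraries a group is 0.1). On this scale the typical SE rose from 0.117 to 0.324, and 232 genes were called (1.9%), 69 higher (0.566%) and 163 lower (1.34%), of which 211 were also called in the same direction with TMM. For knockdown against control it called 856 genes (7.02%), and for knockdown+GCN5 against knockdown 663 (5.44%). No gene had an interval within 1.5-fold of control on it. Within 2-fold there were 3495 genes (28.7%) for knockdown+GCN5 and 4853 (39.8%) for knockdown, the opposite order to that with TMM, where the shares within 2-fold were 84.8% and 82.7%. Which of these groups is nearer to control therefore depends on the scaling. Below, list medians are from TMM, where all tested genes had a median of -0.003, with the spike-in median beside them for reading against -0.435. Counts of called list members are to be read against the shares of all tested genes. For knockdown+GCN5 against control these were 7.97% higher and 7.12% lower, and for knockdown against control 21.1% and 19.5%. In the direct test of knockdown+GCN5 against knockdown they were 22.2% and 22.6%.

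**Figure D3:**
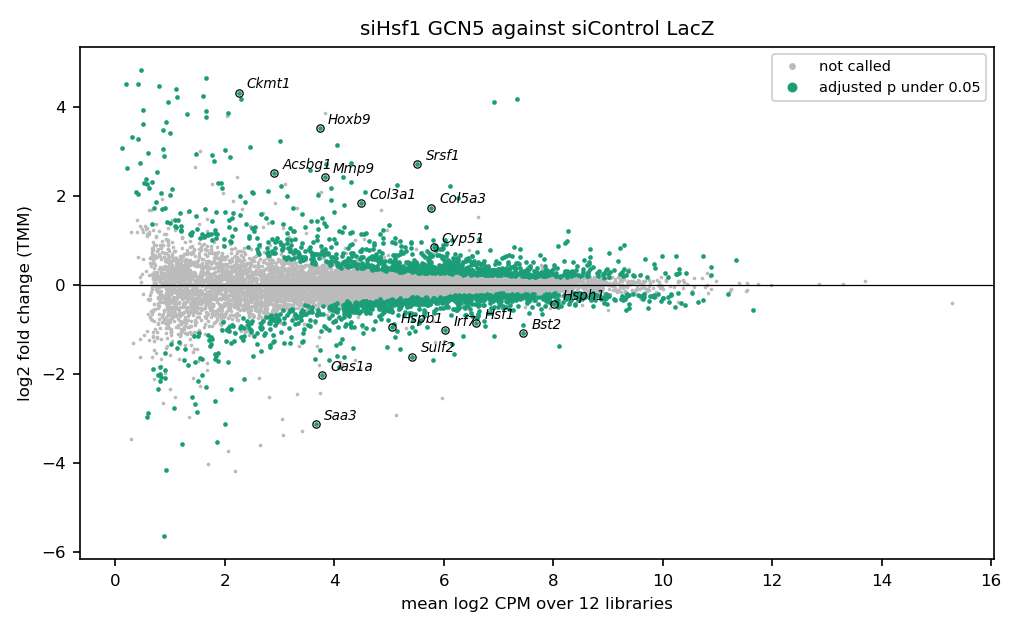
Log2 fold change of siHsf1 GCN5 against siControl LacZ (TMM) plotted on the mean log2 CPM of 12 libraries, 1 point per tested gene; green points are the 1839 called genes. Most green points lie close to 0, and the labelled genes are described in the text.

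In lists of MYC targets, ribosome assembly, nucleotide synthesis and mitosis most members were low in knockdown and few were called in knockdown+GCN5. Of 56 tested members of the second MYC hallmark list, 1 was higher and 4 were lower than control, with a median log2 fold change of -0.09 (spike-in -0.50), against 1 higher and 48 lower with a median of -0.69 in knockdown. In the direct test against knockdown, 46 of the 56 were higher. Ribosome biogenesis genes had 2 higher and 1 lower of 47, with a median of -0.05 (spike-in -0.47), where knockdown had 42 lower. Nucleotide synthesis had 1 higher and 2 lower of 28 (median -0.04, spike-in -0.47), against 26 lower, and mitosis had 1 higher and 3 lower of 32 (median 0.02, spike-in -0.42), against 31 lower. Each of these 4 shares of called members is under the 15.1% of all genes. With any 1 library left out, their counts of lower members ranged from 0 to 5. The classical MYC targets, with 3 higher and 4 lower of 30 (median -0.03, spike-in -0.46), had a share of 23.3%, against 24 lower in knockdown, but the 4 fell to 1 without control replicate 2 or any 1 knockdown+GCN5 library. DNA replication genes were not low as a list in knockdown, with 6 higher and 10 lower of 35 and a median of -0.02, and had 1 lower and none higher in knockdown+GCN5 (median -0.04, spike-in -0.48).

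Single members show both sides of the control level. Cad, which starts pyrimidine synthesis, had 265, 222 and 289 CPM in control, 143, 130.0 and 122 CPM in knockdown and 305, 313 and 315 CPM in knockdown+GCN5. Its knockdown+GCN5 libraries were all above control, at a log2 fold change of 0.26 ± 0.08 (edgeR adjusted p = 0.022), which turned to -0.19 with spike-in scaling. Kif2c, a kinesin that removes tubulin from microtubule ends in mitosis, rose by 0.31 (edgeR adjusted p = 0.0021; -0.12 with spike-in scaling). Pes1, a ribosome assembly factor, had 172, 181 and 174 CPM in control and 149, 152 and 147 CPM in knockdown+GCN5, lower by 0.24 on the log2 scale (edgeR adjusted p = 0.022). The calls of Cad and Pes1 were lost without any 1 knockdown+GCN5 library, and that of Cad also without control replicate 2. Cdk1, the kinase that drives entry into mitosis, had 293, 312 and 281 against 252, 254 and 257 CPM (edgeR adjusted p = 0.012, not called without knockdown+GCN5 replicate 1), and both groups were above the 210.2, 201 and 214 CPM of knockdown.

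Cytosolic ribosomal proteins lay between knockdown and control. Of 79 tested members 31 were lower and none higher than control, with a median log2 fold change of -0.22 (spike-in -0.64), and in knockdown 74 were lower with a median of -0.66. With spike-in scaling no member was called against control. In the direct test 66 of the 79 were higher in knockdown+GCN5 than in knockdown. The count of 31 is not stable. It was 13 without control replicate 2, where the median was -0.12, and 54 without control replicate 3, and 15, 16 and 15 without knockdown+GCN5 replicate 1, 2 and 3. Rps15, of the small subunit, had 611, 718 and 575 CPM in control, 370.1, 399.7 and 396 CPM in knockdown and 468, 452 and 488 CPM in knockdown+GCN5. It stood between the other groups without overlap, at -0.43 ± 0.07 from control (edgeR adjusted p = 0.00013). Rpl41 and Rpl19, of the large subunit, were at -0.42 and -0.38. The control+GCN5 values of Rps15, 491, 567 and 521 CPM, were also below control, at -0.27.

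**Figure D4:**
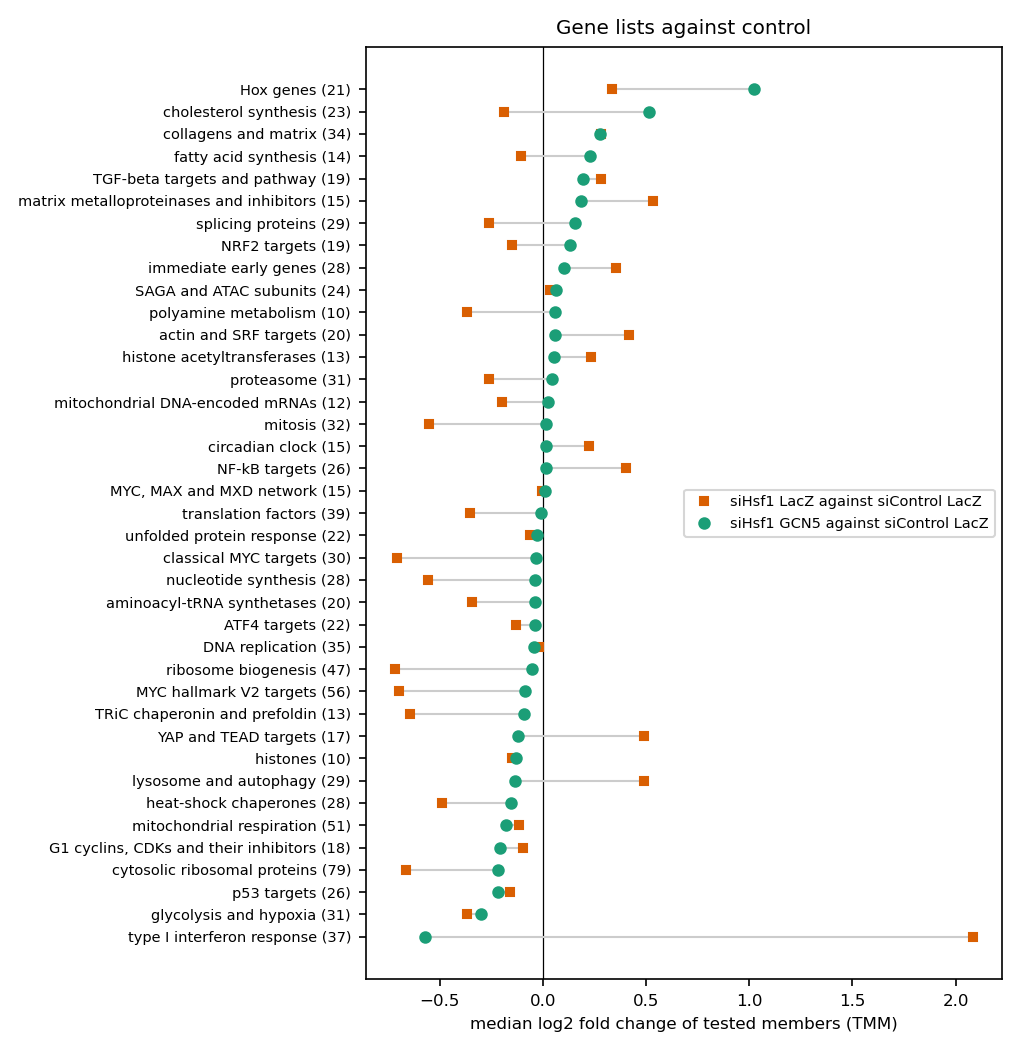
Median log2 fold change against siControl LacZ (TMM) of tested members of each pathway list with at least 10 tested members (number in brackets), for siHsf1 GCN5 (green circles) and siHsf1 LacZ (orange squares); grey lines join the 2 values. MYC target, ribosome biogenesis and mitosis lists sit near 0 in green, the interferon list moves from 2.08 to -0.57, and cholesterol synthesis and Hox genes are highest in green.

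Chaperone genes were lower in part. Of 28 tested heat-shock chaperones 11 (39.3%) were lower than control and none higher, with a median of -0.15 (spike-in -0.59, 3 lower), beside 7.12% lower over all genes, while knockdown had 22 lower and a median of -0.49. Hspb1, a small heat-shock protein, had 44.6, 49.98 and 46.5 CPM in control, 23.6, 26.5 and 20.4 CPM in knockdown and 26.1, 27.3 and 19.9 CPM in knockdown+GCN5. Both siHsf1 groups were below every control library and overlapped each other, and the log2 fold change of knockdown+GCN5 from control was -0.95 ± 0.12 (edgeR adjusted p = 4.3e-06; from knockdown 0.06, edgeR adjusted p = 0.75). Hspb1 is not among the 6 chaperones called lower with siHsf1 within the GCN5 line, which are named below. Hsph1, a nucleotide exchange factor for HSP70, had 312, 314 and 321 CPM in control, 180.1, 174 and 174 CPM in knockdown and 235, 239 and 229 CPM in knockdown+GCN5. Fkbp4, a co-chaperone of HSP90, had 332, 346 and 325, then 162, 162 and 165, then 272, 253 and 265 CPM in the same order. For Hsph1 and Fkbp4 knockdown+GCN5 libraries lay between the other groups without overlap, at -0.43 and -0.34 from control (edgeR adjusted p = 5.4e-06 and 0.00014).

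Cryab, a small heat-shock protein of the crystallin family, went another way. It had 92.4, 111 and 88.3 CPM in control, 91.3, 93.9 and 94.3 CPM in knockdown and 58.3, 62.7 and 61.1 CPM in knockdown+GCN5. It fell by 0.68 from control with GCN5 (edgeR adjusted p = 2.4e-06), and knockdown overlapped control. Cryab, too, is not among the 6 chaperones called lower with siHsf1 within the GCN5 line. TRiC chaperonin and prefoldin genes, which fold actin and tubulin, had 2 lower of 13 with a median of -0.09 (spike-in -0.51), against 10 lower and -0.64 in knockdown. The 2 of 13 are 15.4%, beside 15.1% of all genes called.

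Outside the chaperones, Ccnd3 showed the knockdown most plainly. Cyclin D3, its product, activates CDK4 and CDK6 in the first phase of the cell cycle. It had 145, 137 and 158 CPM in control, 149, 146 and 138 CPM in control+GCN5, 60.05, 70.9 and 62.7 CPM in knockdown and 76.8, 75.04 and 80.5 CPM in knockdown+GCN5. The lines overlapped without knockdown and both siHsf1 groups were far below them. The fold change of knockdown+GCN5 from control was -0.92 ± 0.08 (edgeR adjusted p = 5.8e-09; spike-in -1.37, edgeR adjusted p = 0.0032), of which -0.89 was seen within the GCN5 line.

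The 12 genes that fell with siHsf1 within the GCN5 line are 0.0985% of those tested, and 6 of them belong to the chaperone list. Besides Hsph1 and Fkbp4 they are Dnajb1 (-0.50), Ahsa1 (-0.37), Hsp90aa1 (-0.28) and Hsp90ab1 (-0.22), named after their values were seen. Hsf1 itself and Ccnd3 had the lowest values of the 12, both near -0.9, and are followed by Ccndbp1 (-0.66), also named after its value was seen. Among the 8 that rose was Ptgs2, which encodes the cyclooxygenase COX-2. It had 89.8, 84.5 and 77.7 CPM in control+GCN5 and 128, 139 and 140.4 CPM in knockdown+GCN5, and 102, 93.4 and 97.7 CPM in control.

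The promoters of Hsph1, Hspb1, Fkbp4 and Ccnd3 are shown because their messages stayed below control and because they hold letters of the heat shock element. Each stretch of 100 bases is from RefSeq on GRCm38.p6, is written 5′ to 3′ on the strand of the gene, and has matches to TTCNNGAA or GAANNTTC in capitals, where overlapping matches run together.
Hsph1, chr5:149636287-149636386, minus strand: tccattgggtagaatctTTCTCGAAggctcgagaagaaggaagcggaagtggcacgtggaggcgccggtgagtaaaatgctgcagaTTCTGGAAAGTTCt
Hspb1, chr5:135887766-135887865, plus strand: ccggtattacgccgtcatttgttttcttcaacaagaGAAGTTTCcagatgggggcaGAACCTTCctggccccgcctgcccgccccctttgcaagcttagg
Fkbp4, chr6:128438754-128438853, minus strand: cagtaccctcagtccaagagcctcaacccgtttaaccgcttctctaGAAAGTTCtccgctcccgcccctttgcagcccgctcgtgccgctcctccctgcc
Ccnd3, chr17:47593238-47593337, plus strand: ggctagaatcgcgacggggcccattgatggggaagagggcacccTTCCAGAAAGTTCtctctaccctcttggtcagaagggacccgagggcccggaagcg
Both motifs read the same on either strand. Of 28 tested chaperone genes, 21 had a promoter in the table (250 bases before to 50 after the start), and 12 of these 21 (57.1%) held either form, against 13.7% of 9232 tested genes and 17.0% of all 27025 genes with a promoter. Among genes lower in knockdown+GCN5 than in control the share was 15.2%. The chaperones called lower with siHsf1 within the GCN5 line did not all share the element. Hsph1 and Fkbp4 held a match, while Dnajb1 and Ahsa1 held neither form. Hsp90aa1 and Hsp90ab1 had no promoter to search. A match describes the letters and does not show binding.

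The 37 interferon-response genes tested were all raised in knockdown, and 21 of 37 ended below control in knockdown+GCN5. These genes are switched on by type I interferons and encode antiviral enzymes, signal transducers and antigen-presentation proteins. No member was higher than control, with a median of -0.57 (spike-in -0.99, 11 lower), against 37 higher with a median of 2.08 in knockdown. All 37 were lower in knockdown+GCN5 than in knockdown in the direct test. The control+GCN5 libraries already had 15 of the 37 below control.

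Irf7, the transcription factor that amplifies interferon production, had 25.0, 28.4 and 25.9 CPM in control, 169, 207 and 186 CPM in knockdown, 14.8, 14.9 and 17.1 CPM in control+GCN5 and 14.6, 13.6 and 11 CPM in knockdown+GCN5. The knockdown value was above and both GCN5 groups were below control without overlap, at -1.01 ± 0.13 for knockdown+GCN5 (edgeR adjusted p = 2.9e-06). Oas1a, an enzyme that makes the signal for RNA decay by RNase L, had 5.35, 6.31 and 6.18 CPM in control and 1.92, 1.26 and 1.17 CPM in knockdown+GCN5, at -2.02 ± 0.27 (edgeR adjusted p = 9.3e-06). Oas3, of the same family, was at -1.69. Bst2, tetherin, which holds virions at the cell surface, had 136, 173 and 139 CPM in control, 339, 409.9 and 345 CPM in knockdown and 74.4, 72.8 and 65.1 CPM in knockdown+GCN5 (log2 fold change -1.08). Nlrc5, the activator of MHC class I genes, was at -1.42, and control+GCN5 libraries had a value of -1.62.

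Members with large rises in knockdown ended at differing levels. Ifit3 had 5.35, 4.80 and 6.68 CPM in control, 75.2, 99.0 and 85.9 CPM in knockdown and 1.92, 5.05 and 3.75 CPM in knockdown+GCN5, which overlaps control (-0.66 ± 0.28, edgeR adjusted p = 0.13). Ifi44 was at -0.46 (edgeR adjusted p = 0.10). Usp18, a protease that removes ISG15 and restrains interferon signalling, had 8.92, 8.204 and 8.29 CPM in control, 81.8, 114 and 84.0 CPM in knockdown and 3.599, 3.03 and 3.04 CPM in knockdown+GCN5, below control at -1.39 ± 0.27 (edgeR adjusted p = 0.0016).

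Promoters of Oas1a and Oas3, which fell below control, and of Ifit3, which overlapped it, are shown with the interferon-stimulated response element in capitals, spelled GAAA, any 2 bases, GAAA or as the reverse complement, from the same source and strand convention.
Oas1a, chr5:120907488-120907587, minus strand: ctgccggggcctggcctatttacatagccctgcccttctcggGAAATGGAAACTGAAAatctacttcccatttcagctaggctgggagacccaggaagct
Oas3, chr5:120777680-120777779, minus strand: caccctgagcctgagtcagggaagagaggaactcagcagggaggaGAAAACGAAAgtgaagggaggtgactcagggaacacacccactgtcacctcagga
Ifit3, chr19:34583345-34583444, plus strand: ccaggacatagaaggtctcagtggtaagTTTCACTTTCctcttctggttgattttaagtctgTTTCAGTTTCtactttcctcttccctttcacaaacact
The motif, searched on both strands, was in 14 of 26 interferon-list promoters (53.8%), in 3.66% of tested genes and in 3.99% of all genes with a promoter. Among genes lower in knockdown+GCN5 than in control the share was 5.72%, and among those higher it was 3.75%.

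Cholesterol synthesis stood above control. Of 23 tested genes 17 were higher and 1 lower (Ebp, named after its value was seen and not called in 9 of 14 alternatives), with a median log2 fold change of 0.52, while knockdown had 1 higher and 9 lower with a median of -0.19. With spike-in scaling the median was 0.08, beside -0.435 for all tested genes, and no member was called. The rise was thus called only relative to the other genes. The typical SE was 0.324 on the spike-in scale, so the missed calls there do not show that a rise was absent. The difference was present without knockdown, since control+GCN5 had 18 higher and none lower (median 0.63), and siHsf1 within the GCN5 line called no member by edgeR (5 at an unadjusted p under 0.05). Cyp51, the lanosterol demethylase, had 39.0, 43.7 and 45.1 CPM in control, 32.9, 29.9 and 31.4 CPM in knockdown, 85.5, 86.1 and 74.6 CPM in control+GCN5 and 76.1, 76.0 and 76.8 CPM in knockdown+GCN5. Both GCN5 groups were above all LacZ libraries (0.84 ± 0.09 for knockdown+GCN5 against control, edgeR adjusted p = 2.5e-07). Sqle, the squalene epoxidase, was at 0.66. Fatty acid synthesis had 8 higher and none lower of 14 with a median of 0.23, which turned to -0.20 with spike-in scaling, where none was called. The 8 were 5 without knockdown+GCN5 replicate 1 or 2. Elovl6, a fatty acid elongase, was at 0.89 and Scd2, a desaturase, at 0.72.

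Some matrix genes were higher in knockdown+GCN5 too. Of 34 collagen and matrix genes 17 were higher and 3 lower (Col6a3, Thbs2 and Fbln1, named after their values were seen), with a median of 0.28 that turned to -0.16 with spike-in scaling (4 higher, 2 lower). The knockdown libraries had 17 higher with a median of 0.28, but the direct test of knockdown+GCN5 against knockdown found 13 of the 34 higher and 13 lower. The control+GCN5 libraries had 14 higher and 5 lower than control (median 0.22, spike-in -0.18), and siHsf1 within the GCN5 line called no member. Col5a3, a chain of type V collagen, had 27.9, 26.2 and 29.1 CPM in control, 32.2, 25.8 and 25.6 CPM in knockdown and 85.2, 90.5 and 101 CPM in knockdown+GCN5. LacZ groups overlapped, and knockdown+GCN5 was above both (1.73 ± 0.10, edgeR adjusted p = 5.9e-12; spike-in 1.29). Col3a1, of type III collagen, was at 1.83 and Col6a1 and Col6a2, of type VI, at 0.89 and 1.22. Among 15 metalloproteinases and inhibitors 5 were higher and none lower, with a median of 0.19 that turned to -0.25 with spike-in scaling (2 higher). The 5 were 3 without control replicate 1 or knockdown+GCN5 replicate 2 or 3. They are 33.3% of the list, beside 15.1% of all genes called. The control+GCN5 libraries had 3 higher and 1 lower than control, and siHsf1 within the GCN5 line called none of the 15. Mmp9, a gelatinase, had 5.35, 5.55 and 5.57 CPM in control and 25.7, 30.1 and 32.3 CPM in knockdown+GCN5 (2.41 ± 0.16), and Mmp3, stromelysin, was at 2.12.

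Of 9 tested fibroblast markers 7 were higher and 2 lower, with a median of 0.62 (spike-in 0.16, 1 higher), the latter being Vim (-0.34) and S100a4 (-0.27), named after their values were seen. S100a4 lost its call without control replicate 2 or knockdown+GCN5 replicate 1 or 2. Acta2, smooth muscle actin, had 11.3, 12.2 and 12 CPM in control, 41.3, 59.3 and 47.3 CPM in knockdown, 33.2, 39.5 and 37.0 CPM in control+GCN5 and 30.9, 34.9 and 25.3 CPM in knockdown+GCN5. All 3 other groups were above control, knockdown+GCN5 at 1.35 ± 0.15 (edgeR adjusted p = 4.4e-07) and lower than knockdown by 0.70 (edgeR adjusted p = 9.4e-05). Vcam1, an adhesion molecule, was at 0.81 and Pmepa1, a TGF-beta-induced inhibitor of that pathway, at 0.96.

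Hox genes, which record the position of a cell along the body axis, differed by line. Of 21 tested 10 were higher and 2 lower (Hoxd8 and Hoxa10, named after their values were seen), with a median log2 fold change of 1.02 (spike-in 0.59, 10 higher and 1 lower). The median was 1.61 over 20 tested genes without control replicate 2 and 0.795 over 19 tested genes with thinned counts. Without control replicate 2 or knockdown+GCN5 replicate 3 Hoxa10 was not called. Hoxb9 had 3.02, 2.40 and 2.23 CPM in control, 2.62, 2.82 and 1.83 CPM in knockdown, 26.7, 32.8 and 27.9 CPM in control+GCN5 and 30.9, 28.8 and 28.6 CPM in knockdown+GCN5. The lines did not overlap and the siRNA groups within each line did, at 3.53 ± 0.18 for knockdown+GCN5 against control (edgeR adjusted p = 8.7e-13). Hoxd10 had 7.55, 7.83 and 6.68 CPM in control and 39.8, 38.9 and 31.4 CPM in knockdown+GCN5 (2.32 ± 0.13). Hoxa5 was at 2.18 and Hoxc4 at 3.85, the latter from under 1 CPM in each control library. For siHsf1 within the GCN5 line edgeR called no Hox gene (2 at an unadjusted p under 0.05).

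**Figure D5:**
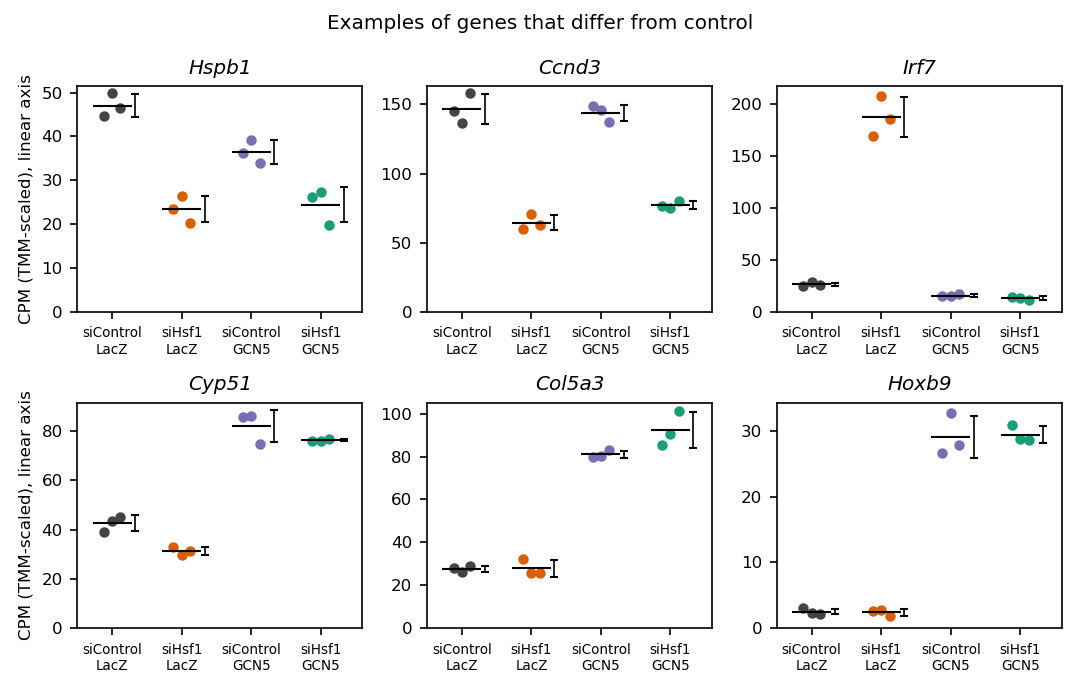
CPM (linear axes from 0) of Hspb1, Ccnd3, Irf7, Cyp51, Col5a3 and Hoxb9 in the 12 libraries by group; points are libraries, horizontal lines means and bars 1 SD. Hspb1 and Ccnd3 are lowest in both siHsf1 groups, Cyp51, Col5a3 and Hoxb9 are high in both GCN5 groups, and Irf7 is high in siHsf1 LacZ and low in both GCN5 groups.

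The 12 protein-coding genes that rose most in knockdown+GCN5, taken among those with non-overlapping groups and a mean log2 CPM of at least 2, include 7 that kept their calls in each of the 14 alternatives run. The alternatives reuse the libraries that chose these genes, so a kept call is no separate support. Genes as low in control as Ckmt1 and Smarca1 could also pass the count filter through the GCN5 groups, where they were high. Ckmt1, a mitochondrial creatine kinase, had 0.412, 0.757 and 0.742 CPM in control and 14.4, 11.9 and 13.3 CPM in knockdown+GCN5 (4.32 ± 0.32). Smarca1, an ISWI chromatin remodeler, had 1.10, 0.252 and 0.495 against 11.3, 9.10 and 13.1 CPM (4.16 ± 0.33). The 0.412 CPM of Ckmt1 in control replicate 1 is at the 3-count limit of that library (0.41 CPM). The 0.252 CPM of Smarca1 in control replicate 2 is under its limit (0.372 CPM), so the sizes of both changes are uncertain. Srsf1, a splicing factor, had 12.6, 13.9 and 11.4 CPM in control, 11.3, 11.8 and 10.1 CPM in knockdown, 79.6, 105 and 94.2 CPM in control+GCN5 and 81.1, 83.6 and 83.8 CPM in knockdown+GCN5 (2.71 ± 0.11, edgeR adjusted p = 1.3e-14). Ckmt1, Smarca1 and Srsf1 were high in both GCN5 groups. Acsbg1, an acyl-CoA synthetase, had 4.26, 3.03 and 2.597 CPM in control, 1.38, 1.06 and 2.07 CPM in knockdown and 17.8, 18.2 and 20.1 CPM in knockdown+GCN5, so GCN5 libraries were above and knockdown libraries below control. LOC105242736 was at 2.74, and Hoxb9 and Hoxc4 complete the 7.

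The other 5 were uneven between libraries of a group. Eif5a, a translation factor, had 26.4, 18.6 and 16.0 CPM in control, 639, 116 and 329 CPM in knockdown+GCN5 and 129, 14.1 and 12.1 CPM in knockdown (4.16 ± 1.14, edgeR adjusted p = 0.044). Hnrnpu, an RNA-binding protein of the nuclear matrix, had 13.2, 12.6 and 11.1 against 269, 278 and 89.2 CPM, with 229.7, 7.76 and 68.4 CPM in knockdown. Gabarap, an autophagy protein, had 4.80, 6.31 and 3.83 against 12.7, 66.7 and 11 CPM. Spag7 and Rad9a varied likewise, and each of these 5 lost its call when any 1 control library was left out. Eif5a has near-identical copies in the genome, and the treatment of reads shared by copies is not stated.

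The 12 genes that fell most, Oas1a and Oas3 among them, kept their calls in each of the 14 alternatives run. These genes, too, were chosen from the libraries that the alternatives reuse. Saa3, an acute-phase protein, had 10.8, 12.4 and 10.9 CPM in control, 27.0, 27.8 and 25.2 CPM in knockdown and 1.20, 1.01 and 1.64 CPM in knockdown+GCN5 (-3.12 ± 0.23, edgeR adjusted p = 5.3e-10). Lcn2, an acute-phase protein that binds siderophores and is named from the NF-kB list, had 124, 130.3 and 114, then 250.5, 232 and 251.2, then 60.2, 49.5 and 54.8 CPM in the same order (-1.16). Both were raised without GCN5 and below control with it. Ly6c1, a surface antigen, had 72.6, 77.1 and 64.6 CPM in control and 21.4, 26.5 and 19.0 CPM in knockdown+GCN5 (-1.68), and Sulf2, a heparan sulfatase, had 68.9, 61.7 and 64.8 against 23.5, 20.0 and 20.4 CPM (-1.61). Lonrf3 (-3.12), Shtn1 (-2.35), Rorb (-2.12), Serpinb9b (-1.84), Sned1 (-1.66) and Als2cl (-1.62) were likewise below control in control+GCN5, at values from -2.95 to -1.28. Clu, the extracellular chaperone clusterin, differed in that its control+GCN5 value was -0.29 (edgeR adjusted p = 0.62). It had 3.98, 4.29 and 3.09 CPM in control, 3.24, 3.25 and 2.76 CPM in control+GCN5 and 1.20, 1.52 and 0.702 CPM in knockdown+GCN5 (-1.72 ± 0.34). Clu was called in neither step, as it is not among the 12 genes called lower with siHsf1 within the GCN5 line. Its 0.702 CPM in knockdown+GCN5 replicate 3 is at the 3-count limit of that library.

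Among the genes that fell most in knockdown, Eda2r, a receptor of the TNF receptor family, had 18.4, 18.6 and 18.1 CPM in control, 5.51, 3.41 and 4.39 CPM in knockdown and 15.8, 14.9 and 13.6 CPM in knockdown+GCN5. It was at -0.31 ± 0.15 from control with GCN5 (edgeR adjusted p = 0.18) and 1.74 above knockdown. Reep6, a protein of the endoplasmic reticulum, had 11.8, 11.99 and 15.0, then 1.93, 3.18 and 2.07, then 5.998, 5.56 and 6.09 CPM in the same order and stayed below control (-1.13, edgeR adjusted p = 0.00051). Cxcl3, a neutrophil-attracting chemokine with the largest rise in knockdown, was at 3.86 ± 2.02 from control with GCN5 (edgeR adjusted p = 0.26). It had 1.68, 1.01 and 38.9 CPM in knockdown+GCN5 and 84.7, 1.41 and 21.2 CPM in knockdown, and its libraries were far apart within both groups.

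RNA-processing genes were higher in part. Of 29 splicing proteins 11 were higher and 1 lower (Hnrnpf, named after its value was seen), with a median of 0.15 that turned to -0.27 with spike-in scaling (1 higher), and knockdown had 20 lower. The 11 were 7 without knockdown+GCN5 replicate 1 or 3. Hnrnpd, which binds AU-rich elements, had 196, 210.5 and 206 CPM in control, 181, 178 and 181 CPM in knockdown, 408, 426 and 435 CPM in control+GCN5 and 394, 399 and 374 CPM in knockdown+GCN5 (0.93 ± 0.06, edgeR adjusted p = 2.2e-11). Hnrnph1 was at 0.82, again in both GCN5 groups. Eif4g2, a translation initiation factor, had 984, 942 and 995 against 1545, 1510.0 and 1541 CPM (0.65 ± 0.05). Of the 24 tested SAGA and ATAC subunits, the partners of GCN5, 3 (12.5%) were called, a share under the 15.1% of all genes: Usp22 at 0.28 and Eny2 at 0.26, both of the deubiquitinase module and both negative with spike-in scaling (-0.18 and -0.16), and Taf10 at -0.29. Taf10 lost its call without control replicate 1 or 2 or any 1 knockdown+GCN5 library, and Eny2 without control replicate 1 or 3 or knockdown+GCN5 replicate 1 or 3.

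Glycolysis genes were low in part. Of 31 glycolysis and hypoxia genes 15 were lower and 2 higher, with a median of -0.30 (spike-in -0.73, 4 lower), beside 18 lower and 3 higher with -0.37 in knockdown. Ldha, lactate dehydrogenase, had 1619, 1803 and 1598 CPM in control, 1219, 1095 and 1187 CPM in knockdown and 1217, 1239 and 1219 CPM in knockdown+GCN5 (-0.45 ± 0.06, edgeR adjusted p = 5.3e-06). The knockdown+GCN5 libraries did not differ measurably from knockdown for this gene (0.07, edgeR adjusted p = 0.35), and control+GCN5 was at -0.34. Tpi1, of the same pathway, was at -0.49 and Slc16a3, the lactate exporter, at -0.80. Of 51 mitochondrial respiration genes 9 were lower and 1 higher (19.6% called, beside 15.1% of all genes), with a median of -0.18 (spike-in -0.58, none called). The 9 were 5 without control replicate 2, where the median was -0.07, 17 without control replicate 3 and 3 without knockdown+GCN5 replicate 1.

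In the list of G1 cyclins, CDKs and their inhibitors 8 of 18 were lower, Ccnd3 among them, and none was higher (median -0.21, spike-in -0.64, 2 lower). The 8 were 5 without control replicate 2 or knockdown+GCN5 replicate 3 and 4 without knockdown+GCN5 replicate 1. Cdkn1a, the inhibitor p21, had 91.3, 85.2 and 71.7 CPM in control, 30.6, 37.4 and 33.4 CPM in knockdown and 50.4, 61.4 and 58.3 CPM in knockdown+GCN5 (-0.55 ± 0.11, edgeR adjusted p = 0.0018), between the other groups. Cdkn1c, the inhibitor p57, was at -1.29, and Perp, a p53 target of cell junctions, at -1.29. Of 26 p53 targets 7 were lower and 1 higher (30.8% called, beside 15.1% of all genes; median -0.22, spike-in -0.64, 1 lower). The 7 were 4 without knockdown+GCN5 replicate 3. Of 19 NRF2 targets 5 were higher and 2 lower, with a median of 0.13 that turned to -0.30 with spike-in scaling (none called). Nqo1, a quinone reductase, had 62.6, 71.7 and 61.2 CPM in control, 35.0, 47.2 and 38.0 CPM in knockdown and 97.9, 96.8 and 93.4 CPM in knockdown+GCN5 (0.56 ± 0.09), above control where knockdown was below it.

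Of lists raised in knockdown, lysosome and autophagy genes had 4 higher and 7 lower of 29 with a median of -0.14 (spike-in -0.56), against 22 higher and 0.49 in knockdown. Lamp1, a lysosomal membrane protein, had 964, 1018 and 945 CPM in control, 1434, 1495 and 1467 CPM in knockdown and 810.3, 809 and 784 CPM in knockdown+GCN5 (-0.28 ± 0.05, edgeR adjusted p = 0.0003). NF-kB targets had 6 higher and 4 lower of 26 (median 0.01, spike-in -0.41), and YAP and TEAD targets 1 higher and 4 lower of 17 (median -0.12, spike-in -0.56), with 2 lower without knockdown+GCN5 replicate 2. The called shares of these 2 lists were 38.5% and 29.4%, beside 15.1% of all genes. Of the 22 tested genes of the unfolded protein response none was called by the main edgeR fit or DESeq2, with a median of -0.03 (spike-in -0.46). In that edgeR fit 9 had an unadjusted p under 0.05, as had 3394 of all 12187 genes (27.8%). With no filter or without control replicate 3, edgeR called 1 higher and 1 lower, and with thinned counts 1 higher. Proteasome subunits had 4 higher and none lower of 31 (median 0.05, spike-in -0.38), where knockdown had 22 lower. The 4 are 12.9%, under the 15.1% of all genes, and were 1 without control replicate 1 or knockdown+GCN5 replicate 1 or 3.

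The c-MYC binding data come from other cells, MEFs with Hsf1 present (WT, given ethanol for 7 days) or deleted (CKO, given 4-hydroxytamoxifen for as long), and are 1 peak list per genotype without replicates. A WT peak lay within 1000 bases of the annotated start of 77.3% of 12153 tested genes with a position. The share was 73.7% (Wilson 95% interval 70.9% to 76.4%) for genes higher in knockdown+GCN5 than in control and 82.1% (79.4% to 84.5%) for genes lower. For genes lower in knockdown it was 83.3%. The CKO list, with 6386 peaks against 220037, covered 35.2% of tested genes, 32.9% of those higher, 38.6% of those lower and 50.4% of those lower in knockdown. These gene sets also differ in level, with a median log2 CPM of 5.08 over all tested genes, 5.69 and 5.5 for those higher and lower in knockdown+GCN5, and 6.08 for those lower in knockdown. The part of level in these shares was not tested.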

How the data were processed

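The authors deposited counts per gene in whole numbers for 12 RNA libraries, with 92 ERCC transcripts in the table. The submitters' processing notes name HISAT2, Bowtie2, DESeq2, SEACR, GRCm38 and mm10; no version and no counting program is named. An FPKM table was not used. The c-MYC peaks carry a maximal coverage signal made by the authors; whether replicates were pooled is not stated. Counts were tested in R 4.3.3 with edgeR 4.0.16 (robust quasi-likelihood, TMM scaling, filterByExpr with a minimum count of 10, 4 group means over 12 libraries, 8 residual degrees of freedom), two-sided with Benjamini-Hochberg adjustment. ERCC rows stayed out of library sizes. TMM was the main scaling because the ratio of ERCC subgroups A and B, 1.36 to 1.54, did not follow the 2 mixes the labels name, and because the coefficient of variation within groups was 0.274 after scaling by the 23 transcripts of subgroup B and 0.089 after TMM. The comparison, the 41 pathway lists and 8 marker lists, and the rule for named genes were chosen with earlier results of these data known. The rule takes Hsf1, Kat2a and Myc, the 12 largest called changes each way among protein-coding genes with non-overlapping groups and mean log2 CPM of at least 2, up to 4 members with the smallest p per list (up to 2 where none was called), and the 8 largest changes each way in siHsf1 LacZ. Of 1119 list members, 1114 were in the count table; positions came from RefSeq on GRCm38.p6 for 12153 tested genes. The procedure was tested on simulated data. Alternatives were other scalings, no filter, thinning, the 6 libraries alone, a replicate block, DESeq2 1.42.0 and leaving out each library. Not analysed here are the siMyc samples.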

Additional observations from a re-analysis of the deposited data

How the results depend on the processing

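For siHsf1 GCN5 against siControl LacZ, siHsf1 LacZ against siControl LacZ and siHsf1 GCN5 against siHsf1 LacZ, ERCC subgroup B scaling gave 232, 856 and 663 calls and scaling by all ERCC transcripts 281, 1095 and 743, against 1839, 4944 and 5464; the SE of a typical gene rose from 0.117 to 0.324. Leaving out 1 library gave 1191 to 1922, 4259 to 4765 and 4710 to 4974 calls. Without siHsf1 GCN5 replicate 1 the first count was 1191 and without replicate 3 it was 1197, both over 1.5 times lower than 1839, with 2 libraries left in that group. Size factors of DESeq2, no filter, thinning, the 6 libraries alone and the DESeq2 test kept the first count between 1325 and 2003. Same-numbered libraries correlated at -0.0615 to 0.101 in their deviations from the group means, so the numbers are taken as names; with a replicate block the counts were 2025, 5120 and 5590. Of the 24 genes named for size, which were chosen from these same libraries, 19 to 24 kept their calls. With a limit of 25% in place of 1.5-fold, 3811 genes had intervals near control, and with spike-in scaling 0. The mean distance from control, 0.519 over all tested genes, was 0.334 over the 8333 genes with a log2 CPM of at least 4. The c-MYC peak share of lower genes was 76.3% within 250 bases and 76.7% with the 152738 peaks of highest coverage, where all tested genes had 71.4% and 71.9%. Of the 93 genes named with values, 43 lost a call with ERCC scaling and 15 with another alternative. With subgroup B and all-ERCC scaling 5 called genes turned negative: Kat2a (-0.239 and -0.24), Usp22 (-0.181 and -0.182), Eny2 (-0.156 and -0.159), Cad (-0.189 and -0.191) and Kif2c (-0.119 and -0.121). Myc, not called on any scale, also did (-0.348 and -0.351). The spike-in reads limit these values.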

Other observations

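Differences from control were not spread evenly over chromosomes. On chromosome 10, 88 of 572 tested genes (15.4%) were lower in siHsf1 GCN5 than in siControl LacZ and 33 (5.77%) were higher, with a median log2 fold change of -0.11, against 7.12% and 7.97% of all tested genes. Chromosome 14 had 40 of 404 genes lower (9.9%) and 16 higher (3.96%), also with a low median of -0.1. On the X chromosome 51 of 399 genes (12.8%) were higher and 22 (5.51%) lower, with a median of 0.078. The siControl GCN5 libraries had medians of -0.11, -0.091 and 0.047 for chromosomes 10, 14 and X. Chromosomes 15 and 19 also had raised shares of lower genes, 12.5% and 10.3%, with medians nearer 0 (-0.027 and -0.046). Shares of higher genes were 11.5%, 11.2% and 10.8% on chromosomes 9, 11 and 18. These chromosomes were picked after their values were seen, genes of a chromosome are not independent, and no test was made.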
